A study of Mus musculus with 8 samples.

Results

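A group of 10 marker genes of acinar injury and acinar-to-ductal metaplasia was followed in mouse pancreas with and without deletion of Daxx. They were Clu, Cd44, Anxa2, Klf4, Klf5, Hes1, Ccnd1, Myc, Nupr1 and S100a11, taken by name, and all 10 were present among the 11789 genes of the deposited table. Animals with both floxed Daxx and the Cre transgene driven by Pdx1 (Daxxfl/flPdx1-CreTg, DC below) were set against wild-type (WT) animals. Each genotype had 4 libraries, each from pancreas tissue at 6 weeks of age, with 2 females and 2 males per genotype according to the design text, although no label gives the sex of a library. The series has no Cre-only or floxed-only group, so the Cre transgene, the floxed allele and the loss of Daxx cannot be told apart. Pdx1-Cre acts in the pancreatic epithelial lineages, so blood vessels, stroma and leukocytes in the tissue are outside its reach. On GRCm38, with the GENCODE M21 annotation, Clu lies at chr14:65968483-65981547, Cd44 at chr2:102811141-102901665, Anxa2 at chr9:69453620-69491795, Nupr1 at chr7:126623249-126630861 and S100a11 at chr3:93520488-93526287. Klf4 lies at chr4:55527143-55532466, Klf5 at chr14:99298691-99315036, Hes1 at chr16:30064384-30067796, Ccnd1 at chr7:144929931-144939925 and Myc at chr15:61985391-61990374, and all 10 are protein-coding genes.

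Acinar cells make and store digestive enzymes. When the pancreas is injured they can lose zymogen granules and take on a duct-like, proliferative state, which is called acinar-to-ductal metaplasia and can reverse once the injury ends. Clu, Cd44, Anxa2 and S100a11 mark stressed or metaplastic epithelium, Nupr1 was found as a gene induced in pancreatitis, Klf4, Klf5 and Hes1 are transcription factors of the transition, and Ccnd1 and Myc drive cell cycle entry and growth. In whole tissue the same RNAs also come from other cells, and fewer cells of a type and less RNA per cell cannot be told apart.

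The libraries held 7705789 to 10517508 reads over the listed genes, of which 71.0% to 77.5% fell on 26 digestive enzyme genes. Daxx itself stood at 26.8, 23.3, 29.2 and 32.5 normalized counts in DC replicates 1 to 4, against 39.7, 58.7, 46.7 and 45.2 in WT replicates 1 to 4. The genotypes did not overlap, the log2 difference was -0.74, and the exact two-sided permutation test over 70 relabellings gave p = 0.0286, the smallest it can give. Normalized counts here are reads divided by a size factor per library, and log2 differences are DC minus WT on the log2(normalized count + 1) scale, on which the change of a gene with few reads looks smaller than it is. WT replicate 3 stood apart in injury genes. It was the highest of the 8 libraries in 12 of the 16 tested genes of the acute injury list, and in 11.3% of all 10468 tested genes. For several genes and lists values are given below with and without it, and others may depend on it as well.

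None of the markers was called between the genotypes. Of the 10 markers, 9 had a mean of at least 10 normalized counts and entered limma over 10468 genes, and 0 of these 9 passed an adjusted p of 0.05, where 0% of all tested genes passed. All 9 had a limma adjusted p of 0.9997. Over all genes limma gave 302 at an unadjusted p under 0.05, edgeR called 0 with 299 and DESeq2 called 1, no marker, with 219. Among the 9 markers 5 lay above 0 and 4 below, with a median log2 difference of 0.04, beside -0.01 over all tested genes. Their median absolute log2 difference was 0.14, beside 0.12 over all tested genes. The genotypes overlapped in all 9, and the share of tested genes without overlap was 1.87%. S100a11, with too few reads for that fit, was the marker in which every DC library lay above every WT library. Most list genes named below were chosen for the smallest unadjusted limma p in these same libraries. Their exact permutation p-values are therefore descriptive, and each had a limma adjusted p of 0.9997.

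**Figure D1:**
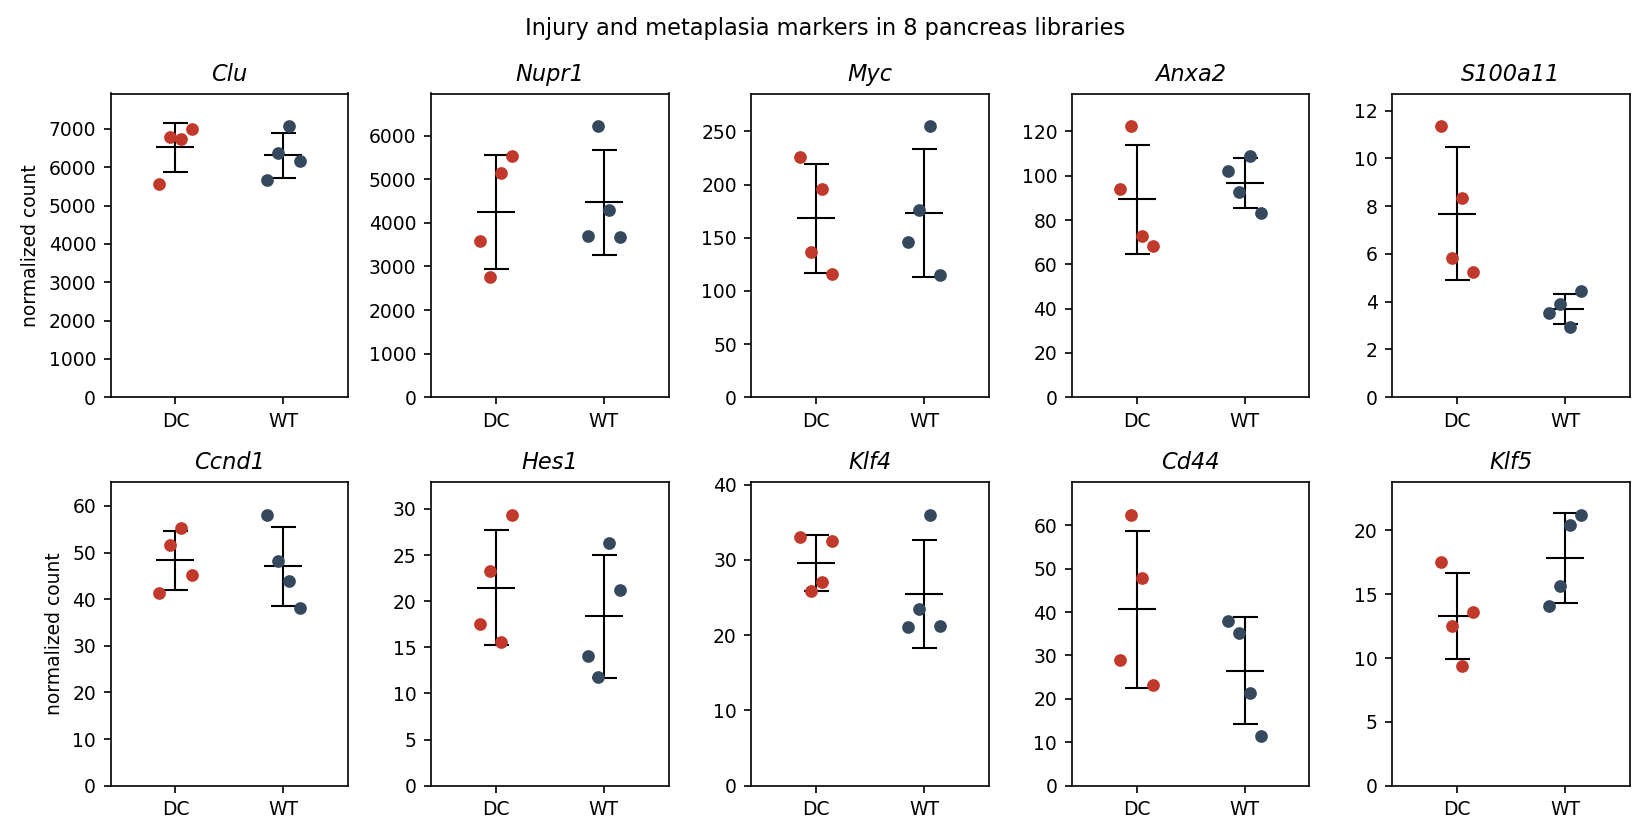
Normalized counts of the 10 markers, 1 panel per gene, with DC libraries on the left and WT libraries on the right. Points are libraries and bars are the mean ± SD of n = 4, and the genotypes overlap in every panel except that of S100a11, where DC libraries lie between 5.25 and 11.4 and WT libraries between 2.92 and 4.43.

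Promoter sequence was at hand in RefSeq (GRCm38.p6) for 5 of the markers, Cd44, Anxa2, Klf4, Nupr1 and S100a11. The stretches before the starts of Cd44 (chr2:102901666-102901915, minus strand, 250 bases) and S100a11 (chr3:93520246-93520487, plus strand, 242 bases) are shown because these genes had the largest log2 differences of the markers. Bases that the GENCODE M21 annotation places in an exon were left off, so the printed S100a11 stretch ends short of its RefSeq start. Distances below are counted from the RefSeq start of each gene. Capitals mark matches, on either strand, to the TATA box TATAAA, the GC box GGGCGG, the CCAAT box CCAAT, the AP-1 site TGANTCA, the RBPJ site TGGGAA, the E-box CACGTG, the heat shock element core GAANNTTC and the ATF4 composite site TGATGNAA.
Cd44: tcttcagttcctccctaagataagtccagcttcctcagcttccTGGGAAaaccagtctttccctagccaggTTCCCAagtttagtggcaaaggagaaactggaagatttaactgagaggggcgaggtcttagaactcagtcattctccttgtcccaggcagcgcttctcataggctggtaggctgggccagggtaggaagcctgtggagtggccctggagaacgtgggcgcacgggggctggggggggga
S100a11: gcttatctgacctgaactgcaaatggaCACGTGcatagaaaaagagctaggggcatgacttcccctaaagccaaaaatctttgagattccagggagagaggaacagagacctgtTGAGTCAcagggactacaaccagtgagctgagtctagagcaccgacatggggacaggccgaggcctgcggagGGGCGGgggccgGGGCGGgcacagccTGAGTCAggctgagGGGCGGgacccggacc
The Cd44 stretch held 2 matches to the RBPJ site, beginning 207 and 179 bases before the start, and a match to it was present in 21.6% of the 32851 RefSeq promoters searched over 250 bases. The S100a11 stretch held 2 AP-1 matches, beginning 136 and 38 bases before the RefSeq start (in 6.75% of promoters), 3 GC boxes (32.7%) and 1 E-box (6.02%). None of these motifs overlaps another here, and a match in letters is not a bound site.

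The markers stood at very different levels in the resting gland. Clu, which encodes the secreted chaperone clusterin, had 1867 normalized counts per kb of merged exon over the 8 libraries, which placed it 44th among the 11781 listed genes with an annotated length. Nupr1, a small stress-induced chromatin protein, had 1735 per kb and placed 48th. The libraries of these genes overlapped, with Clu above Nupr1 in 5 of 8. Myc came next at 62.9 per kb, below Nupr1 in 8 of 8 libraries with no overlap, and Anxa2 followed at 24.9, below Myc in 8 of 8 with no overlap. The other 6 were at or below the median listed gene, which had 12.6 per kb. S100a11 had 11.1, Ccnd1 10.1, Hes1 9.77 and Klf4 9.04 per kb, and the libraries of each of these neighbours overlapped. Cd44 at 4.95 per kb lay below Klf4 in 7 of 8 libraries, and Klf5 at 2.99 lay below Cd44 in 6 of 8, again with overlap. By percentile of listed genes Clu and Nupr1 both lay at 99.6, Cd44 at 24.0 and Klf5 at 14.6.

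**Figure D2:**
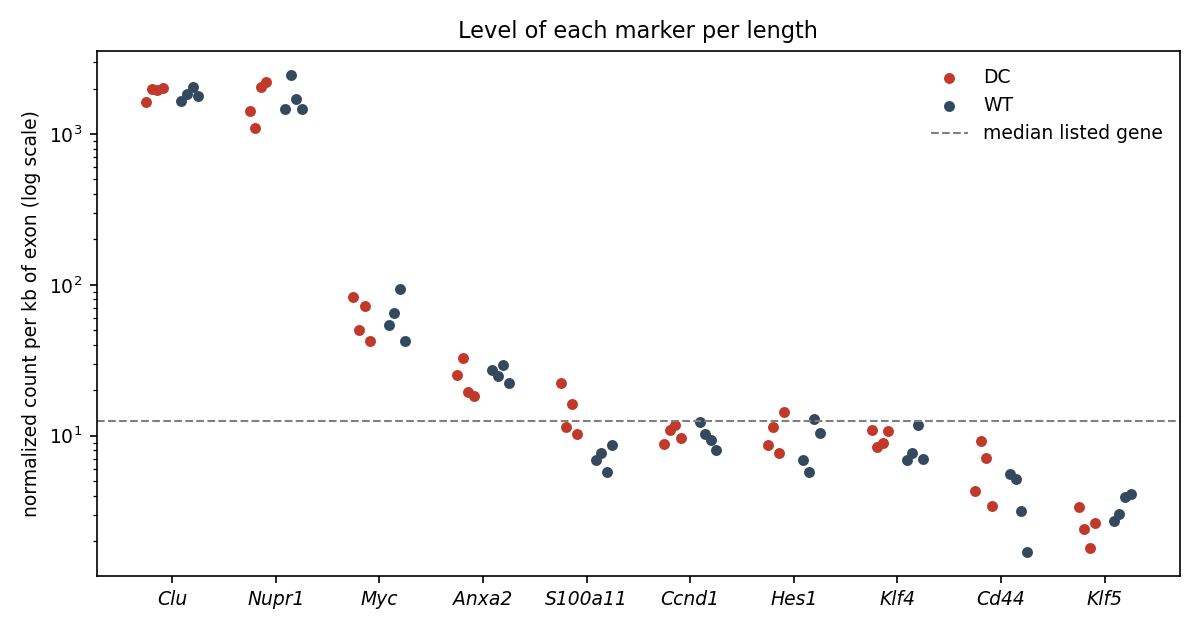
Normalized counts per kb of merged exon of each marker on a log scale, with DC libraries left of WT libraries and the dashed line at 12.6, the median listed gene. Clu and Nupr1 lie between 1093 and 2476 in all libraries, Myc and Anxa2 above the line, and the other 6 markers around or below it.

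Of the surface and secreted markers, Clu was the steadiest. It had 5568, 6796, 6723 and 6984 normalized counts in DC replicates 1 to 4, against 5664, 6374, 7074 and 6153 in WT replicates 1 to 4. The highest library exceeded the lowest 1.27-fold, where the median tested gene spanned 1.73-fold, and the genotypes lay within each other's range. The log2 difference was 0.04 ± 0.11 (SE), with a 95% interval of 0.877-fold to 1.21-fold.

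Cd44, the hyaluronan receptor of activated leukocytes, stroma and metaplastic epithelium, had 28.9, 62.5, 47.9 and 23.1 normalized counts in DC replicates 1 to 4, against 37.9, 35.2, 21.4 and 11.5 in WT replicates 1 to 4. DC replicates 2 and 3 were above all WT libraries and WT replicate 4 was below all others, while DC replicates 1 and 4 fell among the WT values. The DC mean was 40.6 ± 18.03 and the WT mean 26.5 ± 12.3 (SD, n = 4). The log2 difference of 0.63 ± 0.37 (SE) had a 95% interval from -0.16 to 1.41 and an exact permutation p of 0.257. Without DC replicate 2 or WT replicate 4 the log2 difference was 0.39 or 0.29. Leukocyte markers moved with Cd44: their summed level was 230.2, 400.7, 268.7 and 171.1 in DC replicates 1 to 4, against 266.1, 236.1, 174.3 and 160.2 in WT replicates 1 to 4. The part of leukocytes in the Cd44 difference was not tested.

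Anxa2, a calcium-dependent membrane-binding annexin that works in a complex with S100a10, had 93.9, 122.5, 72.9 and 68.2 normalized counts in DC replicates 1 to 4, against 102.2, 92.6, 109.1 and 83.2 in WT replicates 1 to 4. The DC libraries held both the highest and the lowest values of the 8. The log2 difference was -0.14 ± 0.19 (SE; exact permutation p = 0.486). Its partner S100a10 averaged 28.9 ± 15.4 in DC and 39.1 ± 7.37 in WT (SD, n = 4; exact permutation p = 0.229). The annotated exons of Anxa2 share 98 bases with the unlisted antisense gene Gm16144.

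S100a11, an EF-hand calcium-binding protein, had 11.4, 5.83, 8.33 and 5.25 normalized counts in DC replicates 1 to 4, against 3.52, 3.91, 2.92 and 4.43 in WT replicates 1 to 4. These values rest on 11, 7, 8 and 5 reads in DC, 31 in all, and on 4, 3, 3 and 5 reads in WT, 15 in all. All DC libraries were above all WT libraries, with means of 7.69 ± 2.78 in DC and 3.70 ± 0.64 in WT (SD, n = 4) and a log2 difference of 0.84. Every listed gene has at least 5 reads in at least 4 libraries. S100a11 met this in 5 libraries, 4 DC and 1 WT, so its presence in the table depended on the DC libraries, the separation is not independent of the listing, and no permutation test is given for it. Among the 1321 listed genes under a mean of 10 normalized counts, 1.67% had every DC library above every WT library. Over all listed genes without a filter its adjusted p was 0.9997 in limma, 0.9997 in edgeR and 0.99996 in DESeq2, with log2 fold changes of 0.84, 1.03 and 1.05. These fits start from the listed genes, so they are not independent of the listing either. A processed pseudogene, S100a11-ps, is annotated, so the assignment of these few reads is uncertain.

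**Figure D3:**
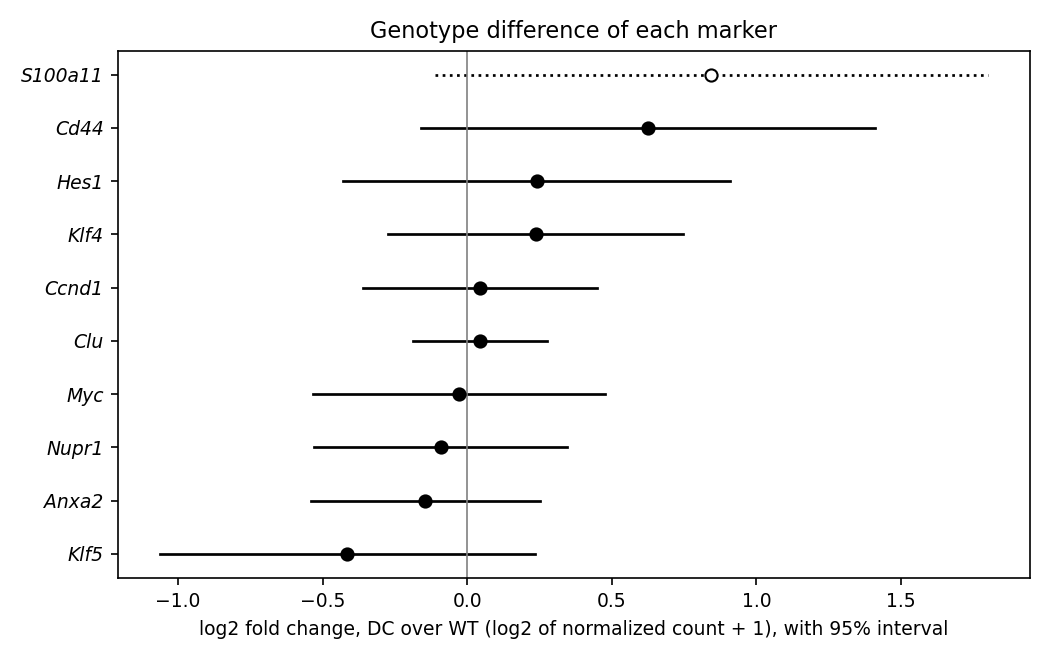
Log2 difference of each marker, DC over WT, with the 95% interval of limma. The open point and dotted line are S100a11, fitted without the filter on low values and listed through its DC libraries. The interval of every marker includes 0.

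Of the transcription factors Klf5 was lower and Klf4 and Hes1 were higher in mean, with overlapping genotypes in each. Klf5, a Krüppel-like factor of progenitor and regenerating epithelium, had 17.5, 12.5, 9.37 and 13.6 normalized counts in DC replicates 1 to 4, against 14.1, 15.7, 20.4 and 21.2 in WT replicates 1 to 4. DC replicates 2, 3 and 4 were below all WT libraries and DC replicate 1 was above 2 of them. The log2 difference of -0.41 ± 0.30 (SE) had an exact permutation p of 0.114 and rests on 9 to 24 reads per library. Klf4, a related factor of differentiated epithelium that promotes ductal identity in acinar cells, had 33.0, 25.8, 27.1 and 32.5 in DC replicates 1 to 4, against 21.1, 23.5, 36.03 and 21.2 in WT replicates 1 to 4. Every DC library was above WT replicates 1, 2 and 4 and below WT replicate 3. Its log2 difference was 0.24 ± 0.24 (SE; exact permutation p = 0.257), and without WT replicate 3 it was 0.41.

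Hes1, the repressor through which Notch signalling holds cells in a progenitor or duct-like state, had 17.5, 23.3, 15.6 and 29.4 normalized counts in DC replicates 1 to 4, against 14.1, 11.7, 26.3 and 21.2 in WT replicates 1 to 4. The genotypes overlapped, with 15.6 to 29.4 in DC and 11.7 to 26.3 in WT. The log2 difference was 0.24 ± 0.31 (SE; exact permutation p = 0.486). With each library left out in turn it ran from 0.06 to 0.43, the latter without WT replicate 3. In the Notch pathway 16 of 29 tested genes lay above 0 and 13 below, 0 were called, and the median was 0.03, beside -0.01 over all tested genes. The Notch coactivator gene Maml1 averaged 64.5 ± 9.72 in DC and 81.6 ± 11.2 in WT (SD, n = 4; exact permutation p = 0.0571).

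The other Klf genes lay mostly below 0, with 8 of 12 below, 4 above, 0 called and a median of -0.11. Klf6, an injury-induced factor, averaged 109.6 ± 24.8 in DC and 195.0 ± 108.6 in WT (SD, n = 4), and Klf11 averaged 34.6 ± 15.6 in DC and 56.8 ± 22.7 in WT. The exact permutation p was 0.171 for Klf6 and 0.114 for Klf11. Both were highest in WT replicate 3, Klf6 at 346.7 against 88.7 to 177.1 in the other WT libraries and Klf11 at 90.6 against 43.0 to 49.6. Without that library the log2 difference of Klf6 was -0.36, beside -0.69 with it, that of Klf11 was -0.48, beside -0.72, and the list had 6 of 12 on each side of 0 with a median of 0.02.

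Ccnd1, the D-type cyclin that couples growth signals to Cdk4 and Cdk6, had 41.3, 51.6, 55.2 and 45.1 normalized counts in DC replicates 1 to 4, against 58.2, 48.3, 43.8 and 38.1 in WT replicates 1 to 4. The WT libraries held both the highest and the lowest value, and the log2 difference was 0.04 ± 0.19 (SE), with a 95% interval of 0.780-fold to 1.36-fold. The annotated exons of Ccnd1 share 1100 bases with a gene on the opposite strand that the table lists as Oraov1. The strand setting of the counting was not stated in the labels or processing notes, so reads of that stretch cannot be assigned with certainty. Of 14 tested genes in a list of cyclin D partners, which also holds Ccnd2, 11 lay above 0 and 3 below with a median of 0.16, and 0 were called. Ccnd2, another D-type cyclin, averaged 1049 ± 199.4 in DC and 769.9 ± 123.0 in WT (SD, n = 4; log2 difference 0.44 ± 0.15 SE, exact permutation p = 0.0857). Cdk6 averaged 178.5 ± 33.0 in DC and 139.9 ± 9.23 in WT (log2 difference 0.33 ± 0.14 SE, exact permutation p = 0.0571).

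Myc, a transcription factor of growth and ribosome synthesis, had 226.1, 136.6, 195.8 and 115.5 normalized counts in DC replicates 1 to 4, against 146.3, 176.1, 255.1 and 115.1 in WT replicates 1 to 4. Each genotype spanned about the same range, and the log2 difference was -0.03 ± 0.24 (SE; exact permutation p = 0.943). In the Myc network 9 of 22 tested genes lay above 0 and 13 below, with 0 called and a median of -0.01. Myc was highest in WT replicate 3, and without that library its log2 difference was 0.18 and 14 of the 22 network genes lay above 0, with a median of 0.06. Its paralog Mycn averaged 22.6 ± 10.4 in DC and 42.8 ± 14.8 in WT (SD, n = 4; exact permutation p = 0.114).

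Nupr1 had 3595, 2749, 5143 and 5527 normalized counts in DC replicates 1 to 4, against 3701, 6224, 4290 and 3670 in WT replicates 1 to 4. The values ran over a 2.26-fold range with no order by genotype, and the log2 difference was -0.09 ± 0.21 (SE), with a 95% interval of 0.692-fold to 1.27-fold. Among 17 tested stress response genes, 8 lay above 0 and 9 below, 0 were called and the median was -0.01. Ddit4, a stress-induced inhibitor of mTORC1, averaged 88.2 ± 5.597 in DC and 147.8 ± 80.2 in WT (SD, n = 4; exact permutation p = 0.0571). It stood at 265.8 in WT replicate 3 and at 93.0 to 129.1 in the other WT libraries, and without WT replicate 3 the log2 difference was -0.28, beside -0.61 with it. Tsc22d3, a glucocorticoid-induced gene, averaged 200.2 ± 34.03 in DC and 246.3 ± 6.97 in WT with no overlap (log2 difference -0.31 ± 0.14 SE, exact permutation p = 0.0286, limma adjusted p = 0.9997).

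The wider programmes of injury and metaplasia were counted in the same fit. Of 21 tested duct-type genes, 9 lay above 0 and 12 below with a median of -0.01, and 0 were called. The duct keratin Krt19 averaged 69.9 ± 8.26 in DC and 70.6 ± 10.7 in WT (SD, n = 4). Of the duct-type genes with the smallest unadjusted p, Prom1 and Muc1 lay below 0 (log2 difference -0.88 and -0.23) and Spp1 above (0.21), each with a limma adjusted p of 0.9997. Prom1 stood at 518.2, 509.0, 121.8 and 129.1 in DC replicates 1 to 4, against 669.7, 296.1, 436.3 and 560.4 in WT replicates 1 to 4. Of 12 tested acinar identity factors 6 lay on each side of 0, with a median of 0.02 and 0 called. In the acute injury response 2 of 16 tested genes lay above 0 and 14 below, with a median of -0.39 beside -0.01 over all tested genes, and again 0 were called. Without WT replicate 3 the count was 4 above and 12 below with a median of -0.20, and without DC replicate 3 or WT replicate 1 the median was -0.19 or -0.20. Spink1, a trypsin inhibitor of acinar cells, had 4445, 4692, 5068 and 5929 normalized counts in DC replicates 1 to 4, against 6457, 6216, 6643 and 6842 in WT replicates 1 to 4. All DC libraries were below all WT libraries (log2 difference -0.39 ± 0.11 SE, exact permutation p = 0.0286, limma adjusted p = 0.9997). Cxcl16, a chemokine gene, averaged 14.1 ± 1.38 in DC and 8.12 ± 0.83 in WT (SD, n = 4), on 6 to 15 reads per library. All DC libraries were above all WT libraries (log2 difference 0.72 ± 0.33 SE, limma adjusted p = 0.9997). Its WT mean lies under the minimum of 10, so its entry into the fit depended on the DC libraries. For that reason no permutation test is given for Cxcl16. Jun, an AP-1 subunit gene, stood at 87.1 to 125.0 in DC and at 105.6 to 149.8 in WT replicates 1, 2 and 4, with 318.4 in WT replicate 3. Its log2 difference was -0.54, and -0.21 without that library. Reg3b, a lectin induced in pancreatitis, stood at 2391, 1073, 252.0 and 815.8 in DC replicates 1 to 4, against 3479, 697.8, 4734 and 867.6 in WT replicates 1 to 4. Both genotypes held high and low animals, with the highest value in WT and the lowest in DC. The log2 difference of Reg3b was -1.06 ± 0.62 (SE; exact permutation p = 0.286). It was -0.59 without WT replicate 3 and -0.47 without DC replicate 3. Of the EGF receptor and MAPK genes 11 of 25 lay above 0 (median -0.03), of the Hippo genes 8 of 18 (median -0.02), of the other S100 and annexin genes 7 of 13 (median 0.01) and of the hyaluronan and Cd44 partners 6 of 10 (median 0.06), with 0 called in each list. The injury genes Il6, Ccl2, Cxcl1, Lcn2 and Timp1 are not among the listed genes.

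Markers of other cells gave 0 called genes as well. The leukocyte list rested on 6 listed genes of 16, Ptprc, Tcf7, Jchain, Coro1a, Lcp1 and Laptm5, with 5 of 6 above 0 and a median of 0.45. Its sum ranged from 171.1 to 400.7 in DC and from 160.2 to 266.1 in WT. The T and B cell genes Cd3e, Cd4, Cd8a and Cd79a are not among the listed genes. Myeloid markers summed to 369.6 to 855.5 in DC and 473.7 to 690.9 in WT, with 6 of 11 above 0, and stromal markers to 4746 to 7134 in DC and 4431 to 6429 in WT, with 8 of 15 above 0. Digestive enzymes had 3 of 26 above 0 (median -0.13), ductal markers 4 of 10 (-0.02), endothelial markers 6 of 11 (0.02), islet markers 3 of 15 (-0.35), adipocyte markers 2 of 8 (-0.34) and gut and mesothelial markers 2 of 4 (0.03). Of all tested genes 48.1% lay above 0. With each library left out in turn, the islet median ran from -0.67 (without DC replicate 3) to -0.01 (without WT replicate 1). The adipocyte median ran from -1.03 (without DC replicate 2) to 0.30 (without DC replicate 4, with 7 of 8 above 0). The leukocyte median ran from 0.19 (without DC replicate 2) to 0.63 (without DC replicate 4).

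Across animals the markers did not vary as one group. Over the 8 libraries 45 pairs of markers were correlated on the log2 scale, with exact permutation p-values over all pairings, and 0 passed after Benjamini-Hochberg adjustment over the 45 pairs, while 3 had an unadjusted p under 0.05. Those 3 joined Cd44, Ccnd1 and Klf5. Cd44 and Ccnd1 had r = 0.82 (exact p = 0.0122, adjusted 0.314) and rho = 0.83 (exact p = 0.0154, adjusted 0.346), and r = 0.78 without the 2 libraries farthest from the median of Cd44. Klf5 ran the other way, on only 9 to 24 reads per library. With Ccnd1 it had r = -0.79 (exact p = 0.0204, adjusted 0.314), rho = -0.79 (exact p = 0.0279, adjusted 0.419) and r = -0.63 without the 2 farthest libraries. With Cd44 it had r = -0.79 (exact p = 0.0210, adjusted 0.314), rho = -0.83 (exact p = 0.0154, adjusted 0.346) and r = -0.76 without the 2 farthest. After each genotype was centred on its mean, r was 0.87 for Cd44 with Ccnd1, -0.91 for Klf5 with Ccnd1 and -0.72 for Cd44 with Klf5. Each library's values share 1 size factor and 1 tissue sample.

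**Figure D4:**
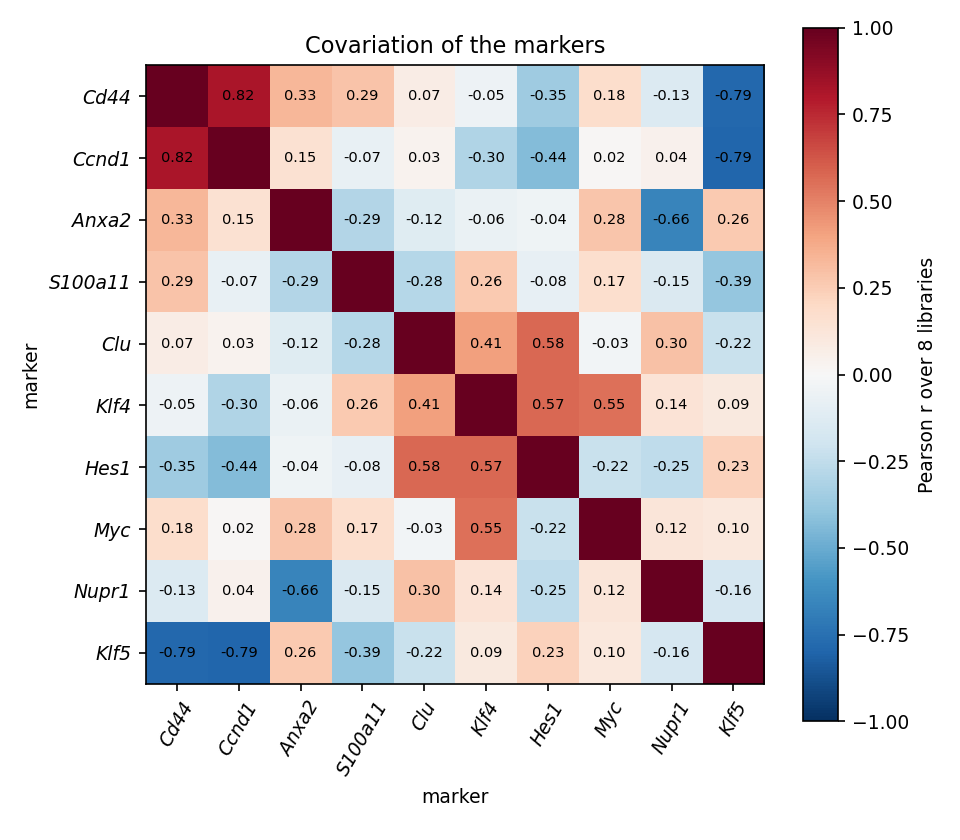
Pearson r of each pair of markers over the 8 libraries, on log2(normalized count + 1). Cd44 and Ccnd1 have r = 0.82, both have -0.79 with Klf5, Anxa2 and Nupr1 have -0.66, and the other pairs lie between -0.44 and 0.58.

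Each marker was also set against the summed level of digestive enzymes, ductal, leukocyte, myeloid and stromal markers and against Reg3b, 60 relations in all. By Pearson's r 0 of the 60 passed after adjustment and 5 had an unadjusted p under 0.05. Cd44 followed the leukocyte markers most closely, with r = 0.93 (exact p = 0.00144, adjusted 0.0863) and rho = 0.98 (exact p = 0.000397, adjusted 0.0238), and r = 0.94 without the 2 libraries farthest from the median of the leukocyte sum. Centred within genotype r was 0.91. Ptprc, the pan-leukocyte CD45 gene, stood at 21.7, 49.1, 27.1 and 10.5 in DC replicates 1 to 4, against 36.1, 24.8, 19.5 and 6.20 in WT replicates 1 to 4. It was highest in DC replicate 2 and lowest in WT replicate 4, as Cd44 was.

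Nupr1 followed the digestive enzymes, with r = 0.86 (exact p = 0.00578, adjusted 0.173), rho = 0.81 (exact p = 0.0218, adjusted 0.344) and r = 0.78 without the 2 farthest libraries. The summed enzymes ran from 5557670 to 7870240 normalized counts in DC and from 6851060 to 7788810 in WT. The 2 DC libraries with the least enzyme RNA, replicates 1 and 2, had the lowest Nupr1 of all 8. Ccnd1 with stromal markers had r = 0.79 (exact p = 0.0253, adjusted 0.304; r = 0.44 without the 2 farthest libraries), Cd44 with stromal markers had r = 0.77 (exact p = 0.0232, adjusted 0.304; 0.65 without them), and Anxa2 with myeloid markers had r = 0.80 (exact p = 0.0164, adjusted 0.304; 0.34 without them). The last of these and that of Ccnd1 fell most without the 2 farthest libraries, a step that also narrows the range of the marker sum. Centred within genotype, r was 0.78 for Ccnd1 with stromal markers and 0.82 for Anxa2 with myeloid markers. Reg3b had no relation with an unadjusted exact p under 0.05 by r to any of the 10 markers.

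**Figure D5:**
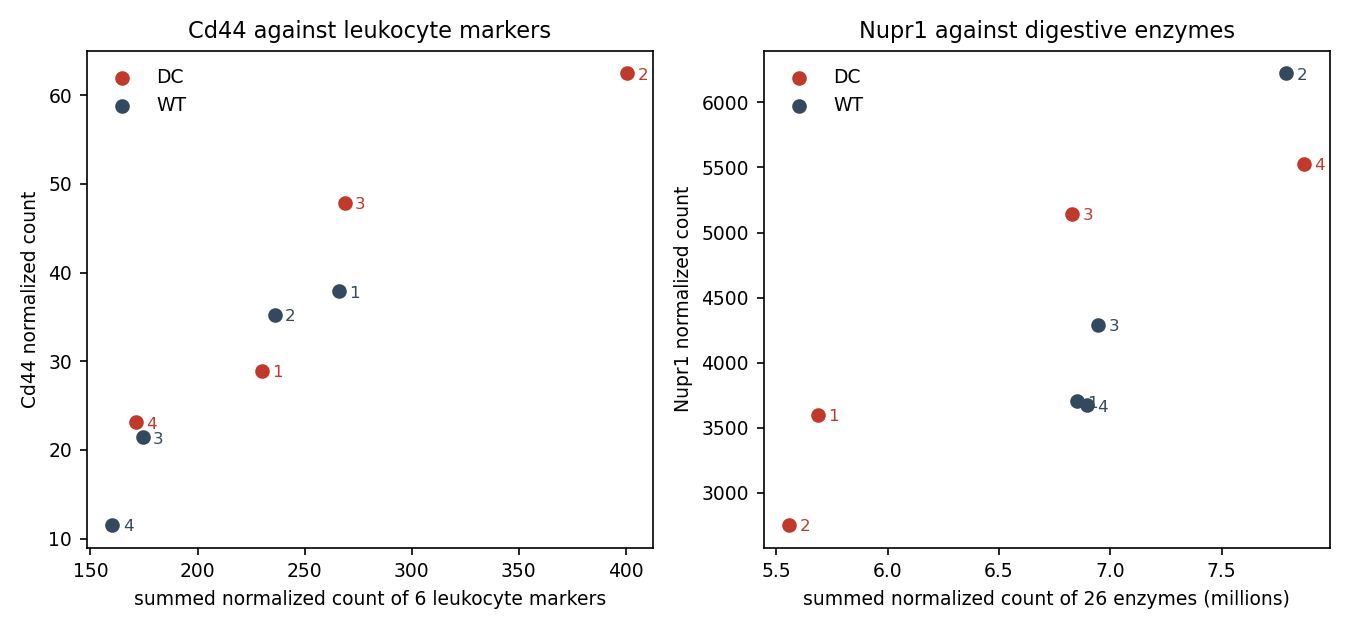
Normalized counts of Cd44 against the summed normalized count of 6 leukocyte markers (left), and of Nupr1 against that of 26 digestive enzymes (right), with 1 numbered point per library, DC in red and WT in dark blue. Cd44 rises with the leukocyte sum in both genotypes, up to DC replicate 2 at 62.5, and Nupr1 is highest in WT replicate 2 and DC replicate 4, the libraries with the most enzyme RNA.

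The most similar pattern over the 8 libraries, by Pearson's r in genes averaging 50 or more normalized counts, is given for 9 of the markers as a description. Nupr1 was most like the chymotrypsinogen gene Ctrb1 (r = 0.99), then Prpsap1 (0.99) and Ctsf (0.99). Cd44 was most like Adgre5, which encodes the leukocyte receptor CD97 (0.96), and Osbpl5 (0.96). Anxa2 was most like Ahnak (0.96), Ccnd1 most like Crip1 (0.95), Klf4 most like Sfmbt1 (0.97), Klf5 most like Mrps23 (0.97), Hes1 most like Nfil3 (0.96), Clu most like 2510039O18Rik (0.98) and Myc most like Rffl (0.92). For each of these 6422 or 6423 genes were compared over 8 libraries.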

How the data were processed

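Strand-specific total RNA libraries were made from frozen pancreas, per the labels' protocols, 1 per animal. The deposited signal is a normalized count, reads over a size factor of the library. This follows from the values, of which 100% were whole multiples of a library's step within 0.001, so reads could be recovered. The genome build GRCm38, DESeq2 (no version) and the aligner STAR 2.6.0b are named, per the submitters' processing notes, whereas the read counter was not given in the sources used here. Lengths and positions are from GENCODE M21.

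Genes with a mean of at least 10 entered limma 3.58.1 (R 4.3.3, trend, genotype as the only term) on log2(value + 1), with Benjamini-Hochberg adjustment over 10468 genes and a threshold of 0.05. edgeR 4.0.16 and DESeq2 1.42.0 were run on recovered reads as alternatives (quasi-likelihood test in edgeR). The limma fit was tested on simulated data. Single genes were also tested by exact permutation over samples, except S100a11 and Cxcl16, whose listing or entry into the fit rests on 1 genotype. The markers and gene lists were chosen with earlier results of these data known. Named genes are the markers, Daxx, up to 3 genes per list with the smallest unadjusted p, the genes most alike and fixed cell type markers. The exact permutation p-values of list genes chosen by that p are descriptive. Other genes, among them those not listed, were named after the values were seen. Replicates carry accession-order numbers and pair nothing. Alternatives were other pseudocounts, filters and scalings, a Y-linked covariate and each library left out. The p-values treat animals as the replicates, and the limma, edgeR and DESeq2 fits also share information on variance across genes. A few named genes are not reported here.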

Additional observations from a re-analysis of the deposited data

Results flagged for a closer look

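Klf4 in WT replicate 3 stood at 36.03 normalized counts, against 21.1 to 23.5 in the other WT libraries, and the gap took 0.844 of the range of that genotype, above the 95% critical value of Dixon's test for 4 values. It was 1 of 22 groups checked, 10 markers and Daxx in each genotype, where chance gives about 1.1. The same library held the highest value of the 8 in 12 of 16 tested acute injury genes, among them Jun (318.4). Reg3b (4734), Klf6 (346.7), Ddit4 (265.8), Klf11 (90.6) and Myc (255.1) were highest there as well, and the lists can share genes. Whether these values are linked was not tested.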

How the results depend on the processing

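In 17 alternative settings 0 markers were called. Over the 148 values that could be fitted for the 9 tested markers, 138 kept their direction and 10 reversed, and the lowest adjusted p was 0.964. Cd44, Klf4, Klf5, Hes1 and Anxa2 kept their direction throughout. With equal library totals, which moved the median of all genes to 0.11, Myc was at 0.093 and Nupr1 at 0.031, both below that median. With each library left out, log2 differences ran from -0.0066 to 0.12 for Clu, from -0.050 to 0.15 for Ccnd1, from -0.20 to 0.18 for Myc and from -0.24 to 0.10 for Nupr1. S100a11, whose listing rests on the DC libraries, ran from 0.66 to 0.99. Daxx ran from -0.82 to -0.64. In edgeR and DESeq2 the Daxx log2 fold changes were -0.75 and -0.756, with adjusted p-values of 0.9999 and 0.9995 over all genes tested. With a pseudocount of 8 the S100a11 difference was 0.41.

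The count of called genes, 0 by limma, was 1 with equal library totals, with DESeq2, with a covariate of Y-linked genes and without DC replicate 2, and 0 to 1 over the libraries left out. No gene of the fixed lists was called in any of these. Among marker pairs 1 passed with equal library totals, Cd44 with Ccnd1 (r = 0.92, exact permutation, adjusted p = 0.0268), and 0 with any library left out. Of the 60 relations to marker sums, 1 passed with a pseudocount of 8, Cd44 with leukocyte markers (adjusted p = 0.0342), and 2 with equal library totals, Cd44 and Ccnd1 with leukocyte markers (both 0.0484). With libraries left out 0 to 1 passed, Cd44 with leukocyte markers without DC replicate 2 or WT replicate 4 (both 0.0238). Values of list genes with a library left out were added after seeing the data. No paired analysis was possible because the replicate numbers are in accession order. Depth limits S100a11, Klf5 and Hes1 most, at 3 to 28 reads per library.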
